A study of Mus musculus with 4 samples.

Results

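GDNF, a growth factor secreted by somatic cells of the testis, binds the co-receptor encoded by Gfra1, and the pair then activates the receptor tyrosine kinase encoded by Ret. The signal runs through SRC-family kinases, PI3K with AKT, and RAS with ERK, and in cultured spermatogonia it raises transcription factor genes, among them the ETS factor gene Etv5, the repressor gene Bcl6b, the LIM homeobox gene Lhx1 and the zinc finger genes Egr2, Egr3 and Egr4. The pathway is known for its role in the self-renewal of spermatogonial stem cells, and Gfra1 is a standard marker of the most primitive spermatogonia. These 8 genes were chosen by symbol, 2 of them for the receptor and 6 for its transcriptional targets, from 27514 genes listed in all 4 libraries.

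The series is single-cell RNA-seq of undifferentiated spermatogonia (A_undiff), sorted from adult C57BL/6J testis at 6 to 8 weeks as E-cadherin+, CD49f+ and c-KIT- cells. CTRL mice were untreated, and BU mice had received 1 dose of 10 mg/kg busulfan, an alkylating agent that depletes spermatogonia, with testes taken at day 10 (D10). All mice were wild type. Each of the 2 experiments gave 1 CTRL and 1 BU library, and each library pooled 3 mice. The library number in the titles was read as the experiment, and the labels name kit V2 for number 1 and V3.1 for number 2. Per the methods, the libraries of an experiment shared 1 sequencing lane, so that on this reading number, kit and lane go together. Individual mice cannot be told apart within a pool, so p-values below rest on pools. Fits by condition only use the spread between the 2 pools of a group. Fits with the experiment as a block use how alike the BU to CTRL difference was in the 2 experiments. Fits with the library as a block use how alike differences between classes of cells were across libraries. With so few pools, edgeR also borrows the spread seen over all genes. A small p in these fits therefore does not by itself measure how alike the 2 experiments were.

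In total 7493 cells passed the filters (over 1000 genes and under 20% mitochondrial UMIs), 3101 and 1120 from the CTRL and 2008 and 1264 from the BU libraries, with median depths of 8066, 30931, 9857.5 and 34176.5 unique molecular identifiers (UMIs, each a counted RNA molecule). The A_undiff marker Zbtb16 had a UMI in 73.7 to 78.6% of passing cells, while Cdh1, which encodes the sorted E-cadherin, had one in 4.03 to 14.9%. These shares were read at each cell's own depth, which differed between the libraries. Transcripts of other cells were present. A spermatid list of 8 genes summed to 1088 to 3026 CPM (UMI counts scaled to a common library total) in experiment 1 and 8889 to 17377 in experiment 2. In CTRL 2, 5 Leydig cell genes summed to 189 CPM, against at most 2.32 elsewhere. Among 6 A_undiff genes, Lin28a (103 and 89.7 CPM in CTRL, 32.5 and 24.0 in BU) was lower in both BU libraries. So was Foxo1 (220 and 138 against 123 and 70.9). Itga6 (31.6 and 33.1 against 65.9 and 45.5) was higher in both. Zbtb16 (213 and 189 against 191 and 103), Sall4 and Cdh1 overlapped between the groups, and Zbtb16 was lowest in BU 2. Of 4 genes of differentiating spermatogonia, Kit was at 1.51 and 7.06 CPM in the CTRL and 26.0 and 29.4 in the BU libraries. Stra8 (63.9 and 39.2 against 163 and 85.6) was also higher in both BU libraries. Dmrtb1 (29.8 and 74.5 against 40.1 and 127) overlapped, and Sohlh1 (432 and 219 against 210 and 107) was lower in both. Kit had a UMI in 17.3 and 30.5% of the passing BU cells. CTRL 2 and BU 2 shared 70 passing barcodes (6.25% and 5.54% of their cells), each with under 10% of the UMIs in 1 library that it had in the other. CTRL 1 and BU 1 shared 7 passing barcodes, none of them so uneven in UMIs. The edgeR fits, detection shares and pair odds ratios were computed again without the shared barcodes of both experiments, and other values were not.

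In the mouse genome the 8 genes lie on 6 chromosomes (GENCODE M21 on GRCm38, which need not be the build used for counting). Gfra1 (ENSMUSG00000025089) lies at chr19:58235604-58455909 and Ret (ENSMUSG00000030110) at chr6:118151745-118197718, both on the minus strand. Etv5 (ENSMUSG00000013089) lies at chr16:22381309-22439719, Bcl6b (ENSMUSG00000000317) at chr11:70224128-70229798 and Lhx1 (ENSMUSG00000018698) at chr11:84518284-84525535, also on the minus strand. Egr2 (ENSMUSG00000037868) at chr10:67535475-67542188 and Egr3 (ENSMUSG00000033730) at chr14:70077203-70082614 lie on the plus strand, and Egr4 (ENSMUSG00000071341) at chr6:85511121-85513589 on the minus strand.

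RefSeq promoter windows (GRCm38.p6) were found for 5 of the 8 genes, Gfra1, Etv5, Lhx1, Egr2 and Egr4, in 10 windows. The 250 bases before the start are printed for the 4 of these genes whose BU and CTRL detection shares, given further on, did not overlap, Gfra1, Lhx1, Egr2 and Egr4. For Egr2, which has 5 windows, the first of 3 overlapping windows that hold both a CArG box and TGACG is shown. Each runs 5′ to 3′ on the gene's own strand, and capitals mark motif letters, searched on both strands: CCGGAA (the core bound by ETS factors such as ETV5), TGACG (one side of the cyclic AMP response element) and the CArG box, bound by serum response factor with its ETS partners at early response genes.
Gfra1 (chr19:58455399-58455648, minus strand): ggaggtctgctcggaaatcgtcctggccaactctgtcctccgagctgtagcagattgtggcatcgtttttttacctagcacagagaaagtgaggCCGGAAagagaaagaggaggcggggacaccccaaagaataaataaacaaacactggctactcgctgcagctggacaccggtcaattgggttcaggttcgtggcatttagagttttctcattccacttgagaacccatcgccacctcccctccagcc
Lhx1 (chr11:84525535-84525784, minus strand): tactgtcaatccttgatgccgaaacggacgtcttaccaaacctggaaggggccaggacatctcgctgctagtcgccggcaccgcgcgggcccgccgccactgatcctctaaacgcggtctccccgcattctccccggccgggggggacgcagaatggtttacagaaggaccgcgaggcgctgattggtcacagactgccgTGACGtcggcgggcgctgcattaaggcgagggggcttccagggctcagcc
Egr2 (chr10:67537619-67537868, plus strand): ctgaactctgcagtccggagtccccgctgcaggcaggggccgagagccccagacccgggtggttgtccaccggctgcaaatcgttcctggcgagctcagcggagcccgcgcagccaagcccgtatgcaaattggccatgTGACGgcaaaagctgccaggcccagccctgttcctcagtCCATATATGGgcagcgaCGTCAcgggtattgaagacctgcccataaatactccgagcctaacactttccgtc
Egr4 (chr6:85513590-85513839, minus strand): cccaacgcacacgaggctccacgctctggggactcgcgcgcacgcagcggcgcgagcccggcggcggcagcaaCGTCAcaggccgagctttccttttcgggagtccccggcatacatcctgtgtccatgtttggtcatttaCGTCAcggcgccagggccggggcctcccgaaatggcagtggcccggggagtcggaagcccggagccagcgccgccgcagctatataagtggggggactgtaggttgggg

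The Egr2 window held a CArG box at -72 to -63 from the start, with TGACG at -111 to -107 and, on the other strand, at -55 to -51. Among all 32851 promoter windows of 300 bases, 1.63% held a CArG box. The Egr4 window held TGACG 2 times on the other strand, at -177 to -173 and -109 to -105, and the Lhx1 window 1 time, at -50 to -46, a motif found in 20.8% of all windows. The ETS core CCGGAA of the Gfra1 window stood at -156 to -151 and was found in 14.9% of all windows. An Egr2 window further upstream (chr10:67537316-67537615) held another CArG box and 3 matches to CCGGAA, of which a pair overlapped as a palindrome. Neither Etv5 window held any of these motifs, and the full element TGACGTCA (1.79% of all windows) and the EGR site GCGNGGGCG (5.55%) were in none of the 10. These matches describe the letters and not a bound factor.

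Lhx1, Gfra1 and Bcl6b were higher in both BU than in both CTRL libraries, and Egr4 was lower in both BU libraries. Egr2 was level between BU 2 and CTRL 1, and Ret and Etv5 overlapped between the groups. Levels are UMIs summed over all passing cells, in CPM, where fewer cells of a type and less RNA per cell cannot be told apart. Of 17354 genes tested, 18.5% stood higher in both BU libraries than in both CTRL libraries, and 14.9% stood lower in both, against 4 and 1 of the 8, with Egr2 among the 4 only by a difference too small to show in the values printed below.

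Gfra1 stood at 31.2 CPM in CTRL 1 and 31.7 in CTRL 2, and at 82.9 in BU 1 and 71.5 in BU 2. The BU libraries lay 2.63 and 2.24 times as high as the CTRL library of the same experiment (ratios here and below with 0.5 CPM added to both). Ret, which encodes the kinase that GFRA1 needs to signal, stood at 43.4 and 31.7 CPM in the CTRL and at 38.2 and 32.4 in the BU libraries. Its values overlapped between the groups, with BU to CTRL ratios of 0.881 and 1.02.

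Lhx1, a LIM homeobox factor gene and GDNF target in cultured spermatogonia, stood at 13.7 and 16.5 CPM in CTRL 1 and CTRL 2 and at 73.8 and 85.2 in BU 1 and BU 2, with BU to CTRL ratios of 5.24 and 5.03. Bcl6b, which encodes a BTB zinc finger repressor, stood at 12.9 and 8.02 CPM in the CTRL and at 33.7 and 27.2 in the BU libraries, with ratios of 2.55 and 3.25. Both genes were well apart between the groups. Etv5, the ETS factor gene needed for stem cell maintenance in the mouse testis, stood at 42.4 and 16.3 CPM in the CTRL and at 57.5 and 34.6 in the BU libraries. It was higher in BU within each experiment, by 1.35 and 2.09 times, while CTRL 1 lay above BU 2.

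The 3 EGR genes, which encode immediate early zinc finger factors, differed from one another. Egr2 stood at 29.5 and 10.6 CPM in the CTRL and at 52.4 and 29.5 in the BU libraries, so that BU 2 was level with CTRL 1 while the ratios within experiments were 1.76 and 2.72. Egr4, by far the most abundant of the 8, stood at 723 and 375 CPM in the CTRL and at 285 and 213 in the BU libraries, with ratios of 0.394 and 0.569. Egr3 had 8 UMIs in all of CTRL 1 and 3 in BU 1, against 241 (6.25 CPM) in CTRL 2 and 779 (14.8 CPM) in BU 2. Its level therefore followed the experiment, and no comparison of BU with CTRL could be drawn from experiment 1.

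**Figure D1:**
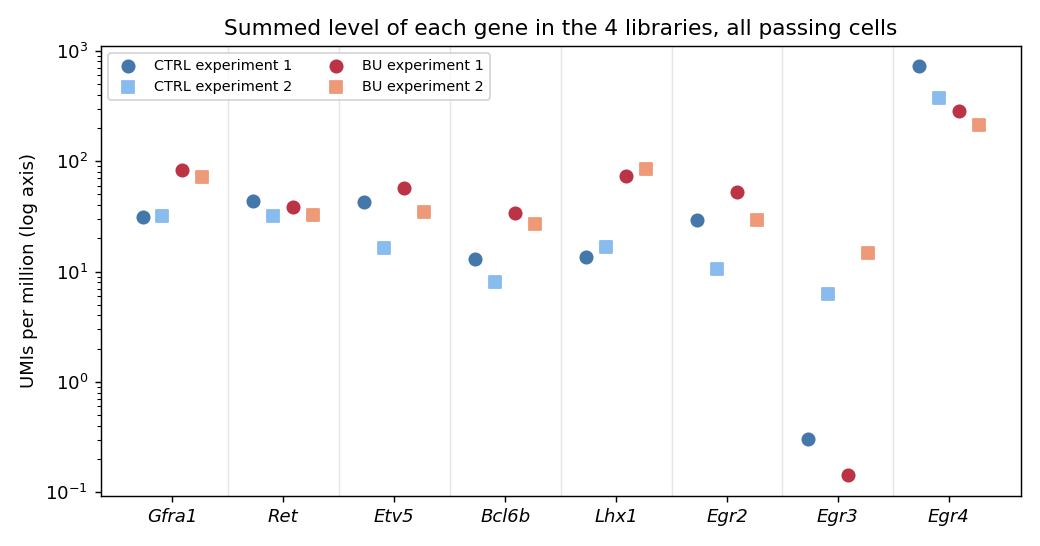
Summed level of each of the 8 genes in the 4 libraries, in CPM over all passing cells on a log axis; circles are experiment 1, squares experiment 2, blue CTRL and red BU, 1 point per library. Lhx1 shows the widest gap, from at most 16.5 in CTRL to at least 73.8 in BU, Egr4 is the gene whose BU points lie below both CTRL points, and Egr3 is split by experiment.

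BU and CTRL were compared across all genes with edgeR's quasi-likelihood test on the summed counts, once by condition only and once with the experiment as a block. The block was used since the labels tie the library number to the kit. By condition only, 0 of 17354 genes passed an adjusted p of 0.05 (0%, with 926 at an unadjusted p under 0.05), while DESeq2 called 120, Lhx1 among them (log2 fold change 2.34, adjusted p = 4.23e-06). With the replicate block, edgeR called 258 genes (1.49%), 111 higher in BU (0.64%) and 147 lower (0.847%). In this fit 3 of the 8 rose, Lhx1 by 2.43 ± 0.23 on the log2 scale (approximate SE, adjusted p = 0.0184 against 0.869 by condition only), Gfra1 by 1.32 ± 0.22 (0.0431 against 0.869) and Bcl6b by 1.60 ± 0.27 (0.0450 against 0.872). Egr4 did not pass (log2 fold change -1.05 ± 0.20, adjusted p = 0.0552 with the block in edgeR). Egr2 (1.18 ± 0.28, adjusted p = 0.0867), Etv5 (0.79 ± 0.27, 0.175), Egr3 (0.82 ± 0.51, 0.423) and Ret (-0.05 ± 0.24, 0.933) did not pass either edgeR fit. The median log2 difference of the 8 was 1.00 with the block, against 0.04 over all genes tested.

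Leaving out BU 1 or BU 2 gave 33 and 96 calls by condition only in edgeR, and none of the 8 genes was among them. Without the barcodes shared between libraries the log2 differences by condition only were 2.34 for Lhx1, 1.21 for Gfra1, 1.47 for Bcl6b and -1.24 for Egr4, with 0 calls over all genes (1106 at an unadjusted p under 0.05). With the replicate block as well, a fit added after the data were seen, edgeR called 1557 genes, 546 higher and 1011 lower in BU. With the shared barcodes kept the count was 258, and the 1.49% given for it is not the share for this fit. Calls among the 8 in this fit stand against the far larger count of 1557. Among the 8, Lhx1 (2.34), Gfra1 (1.20) and Bcl6b (1.53) were again called, and Egr2 (1.08, adjusted p = 0.0129) and Egr4 (-1.15, 0.00191) were called in this edgeR fit too. With cells rich in spermatid, somatic or Kit transcripts left out they were 2.45, 1.30, 1.53 and -1.13. The spermatid list lay lower in the BU than in the CTRL library of each experiment (1088 against 3026 and 8889 against 17377 CPM). All 5 genes of a progenitor list (Neurog3, Sox3, Rarg, Upp1 and Ddit4) fell in the fit with the block, and their summed level was 467 and 384 CPM in CTRL and 97.9 and 83.0 in BU. The part of these cells in the results was not tested.

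Per cell, the same order appeared in how many cells held each transcript. To set libraries of unequal depth side by side, each cell with at least 5000 UMIs was thinned at random to 5000, which left 2826, 1007, 1928 and 1170 cells in CTRL 1, CTRL 2, BU 1 and BU 2. With 2 libraries a group, the exact two-sided permutation test over 6 assignments cannot give a p under 0.33. A share here is the share of cells with at least 1 UMI, which is a detection rate and below the share of cells that express the gene.

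Gfra1 was detected in 12.8% (exact 95% binomial interval 11.6 to 14.1%) and 15.4% (13.2 to 17.8%) of CTRL cells and in 30.9% (28.9 to 33.0%) and 26.0% (23.5 to 28.6%) of BU cells. The mean was 14.1% ± 1.83 (SD, n = 2) in CTRL and 28.4% ± 3.49 in BU, a difference of 14.3 percentage points (exact permutation p = 0.33). Unthinned, the shares were 19.3, 35.4, 45.6 and 62.2% in the same order of libraries. Ret was detected in 19.5 and 14.9% of CTRL and in 17.6 and 13.3% of BU cells, a difference of -1.74 points that lay within the spread of the CTRL libraries (3.25, SD). Its unthinned shares were 27.9 and 48.4% in CTRL and 29.0 and 46.5% in BU.

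Lhx1 went from 5.56% (4.74 to 6.46%) and 6.95% (5.46 to 8.70%) of CTRL cells to 22.9% (21.1 to 24.9%) and 26.1% (23.6 to 28.7%) of BU cells, a difference of 18.2 points (exact permutation p = 0.33). Bcl6b was detected in 5.94 and 3.77% of CTRL and in 12.7 and 12.3% of BU cells, and Egr2 in 11.9 and 6.36% of CTRL and 21.01 and 14.4% of BU cells. For these 3 genes and Gfra1 both BU libraries lay above both CTRL libraries. The share of all genes that did so was taken for summed levels only (18.5%) and not for detection. Etv5 was detected in 17.3 and 8.24% of CTRL and 23.4 and 15.6% of BU cells, which overlapped. Egr4 went the other way, from 87.6 and 70.2% of CTRL to 58.9 and 52.0% of BU cells, a difference of -23.5 points (exact permutation p = 0.33). Without the shared barcodes the differences were 14.5 points for Gfra1, 18.4 for Lhx1, 7.64 for Bcl6b, 8.598 for Egr2, 6.62 for Etv5, -1.74 for Ret and -23.6 for Egr4. Unthinned, Egr4 was in 90.4 and 79.6% of CTRL and in 73.3 and 79.5% of BU cells, and the deeper libraries of experiment 2 then differed by little.

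Egr3 was detected in 2 of 2826 thinned cells of CTRL 1 and 0 of 1928 of BU 1 (upper exact 95% limit 0.191%), against 2.98% of CTRL 2 and 5.90% of BU 2 cells. As a measure of free RNA, cells with 5% or more of their UMIs from the spermatid list, which should lack A_undiff transcripts, were read at the same depth. In CTRL 2, with 80 such cells at a median of 31658 UMIs before thinning against 32671 in the other cells, Gfra1 was in 2.5%, Lhx1 in 1.25% and Egr4 in 2.5%, against 16.5, 7.44 and 76.1% of the others. In BU 2, with 54 such cells at 36231 against 36033 UMIs, these shares were 5.56, 7.41 and 7.41%, against 26.97, 26.97 and 54.1%. Egr3 was in 7.5% of the spermatid-rich against 2.59% of the other cells in CTRL 2 and in 5.56% (1.16 to 15.4%) against 5.91% in BU 2. Its share in the other cells was thus below that in spermatid-rich cells in CTRL 2 and near it in BU 2, where the interval is wide. Within BU 2 it was in 9.21% of the cells with a Gfra1 UMI against 4.73% of those without. The part of free RNA in it was not tested. The genes most alike to Egr3 across cells were 4933433C11Rik, 1700113H08Rik and Scp2d1 (mean r of 0.14, 0.13 and 0.12 over the 4 libraries). BU 1 had no Egr3 UMI in thinned cells, so no r exists there and it entered the mean as 0. The r of CTRL 1 rests on 2 cells with an Egr3 UMI. None of these genes was among those named for any other of the 8.

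**Figure D2:**
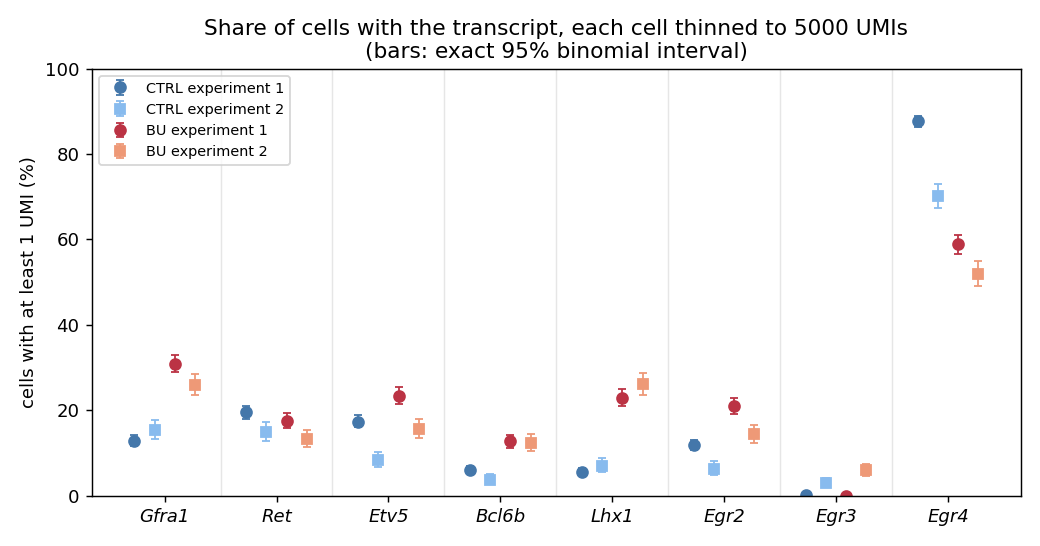
Share of cells with at least 1 UMI of each gene after thinning each cell to 5000 UMIs, in percent of the cells of a library; bars are exact 95% binomial intervals and cover counting error only. The BU points of Gfra1, Bcl6b, Lhx1 and Egr2 lie above both CTRL points, those of Egr4 lie below, and those of Ret and Etv5 overlap with CTRL.

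The transcripts of the receptor and of Etv5, Bcl6b, Lhx1 and Egr2 were found in the same cells more often than the product of their shares would give. For each pair an odds ratio of joint detection was taken within each library on thinned cells, where both genes had a UMI in at least 10 cells. In 15 of 28 pairs, all those among Gfra1, Ret, Etv5, Bcl6b, Lhx1 and Egr2, the odds ratio was above 1 in all 4 libraries, and also without the shared barcodes. Cells of a library share their depth and capture, so these values describe the libraries and carry no test. How many pairs of other genes lay above 1 in all 4 libraries was not counted. The 15 pairs therefore cannot be read as a trait of these genes alone. Spermatid-rich cells, in which these transcripts were detected less often than in the other cells, were kept in the odds ratios. Their part in the values was not tested.

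The receptor pair Gfra1 and Ret was found together in 122 and 45 CTRL cells (70.6 and 23.1 from the shares alone) and in 146 and 63 BU cells (104.8 and 40.5). The odds ratios were 2.41, 2.92, 1.92 and 2.18 in that order. Ret was detected in 33.7, 29.0, 24.5 and 20.7% of the cells with a Gfra1 UMI and in 17.4, 12.3, 14.5 and 10.7% of those without. Most cells with one receptor transcript thus had no UMI of the other at this depth, and cells with both made up 4.32, 4.47, 7.57 and 5.38% of the 4 libraries.

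The strongest pair was Lhx1 with Egr2, with odds ratios of 7.74 and 9.78 in CTRL and 3.96 and 2.71 in BU (mean log2 odds ratio 2.42 ± 0.86, SD over 4 libraries). Gfra1 with Lhx1 followed, at 5.65, 9.46, 3.04 and 2.45. Gfra1 with Etv5 gave 4.55, 5.18, 2.70 and 2.24, and Gfra1 with Egr2 gave 4.27, 12.8, 2.30 and 1.57. In each of these pairs both CTRL libraries lay above both BU libraries. Gfra1 with Bcl6b was less even, at 1.89, 4.89, 2.05 and 2.14.

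Egr4 was below 1 with Gfra1 in CTRL and above 1 in BU. Its odds ratio with Gfra1 was 0.416 and 0.684 in CTRL but 1.40 and 1.54 in BU. Egr4 was detected in 77.3 and 63.2% of CTRL cells with a Gfra1 UMI against 89.1 and 71.5% of those without, and in 64.4 and 59.9% against 56.4 and 49.2% in BU. Without thinning the mean log2 odds ratio of this pair was 1.33 in place of -0.18. Egr3 could be paired in experiment 2 only, with 0 to 10 joint cells a pair in CTRL 2 and 14 to 43 in BU 2. Its odds ratios were above 1 in both libraries with Lhx1 (3.00 in CTRL 2, 2.47 in BU 2), Etv5 (2.47 and 1.44), Egr2 (1.90 and 2.27) and Gfra1 (1.19 and 2.05). With Ret (0.717 and 1.76), Bcl6b (0.40 from 0 joint cells, and 1.94) and Egr4 (0.206 and 1.56) they lay below 1 in CTRL 2 and above 1 in BU 2.

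**Figure D3:**
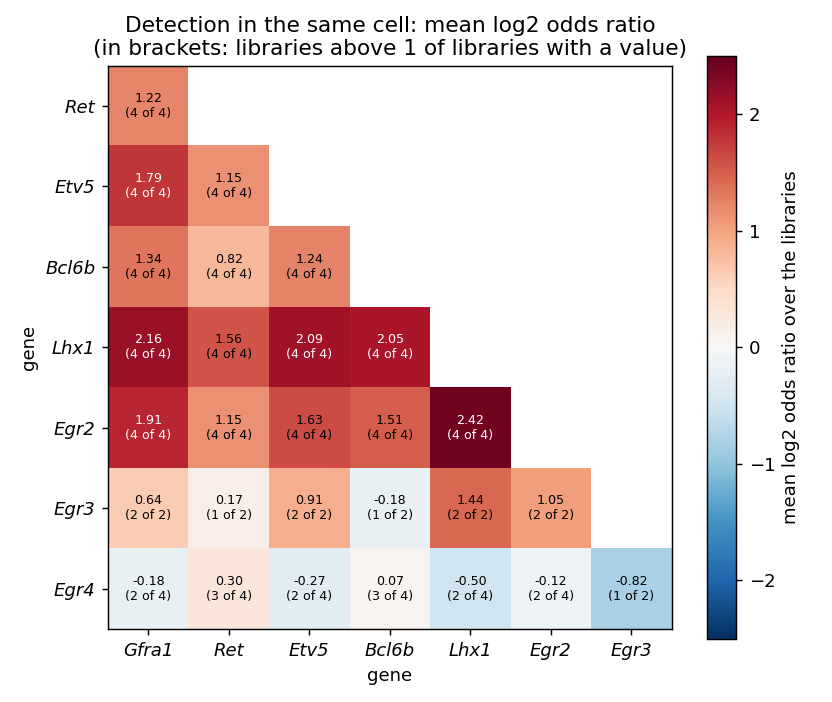
Mean log2 odds ratio of joint detection of 2 genes in a thinned cell, over the libraries in which both had a UMI in at least 10 cells; red is above and blue below 0, and brackets give the libraries above an odds ratio of 1. The 15 pairs among Gfra1, Ret, Etv5, Bcl6b, Lhx1 and Egr2 are above 1 in 4 of 4 libraries, from 0.82 for Ret with Bcl6b to 2.42 for Lhx1 with Egr2, whereas the pairs of Egr4 lie between -0.82 and 0.30.

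The number of the 7 genes other than Egr4 detected in a cell was counted, with no expectation from the single shares, which by themselves raise such counts in BU. No UMI of any of them was found in 57.3 and 64.2% of CTRL and in 39.8 and 41.3% of BU cells. At least 3 were found together in 7.61 and 5.76% of CTRL and in 20.95 and 15.9% of BU cells. The highest number was 6, reached by 1, 1, 4 and 2 cells.

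**Figure D4:**
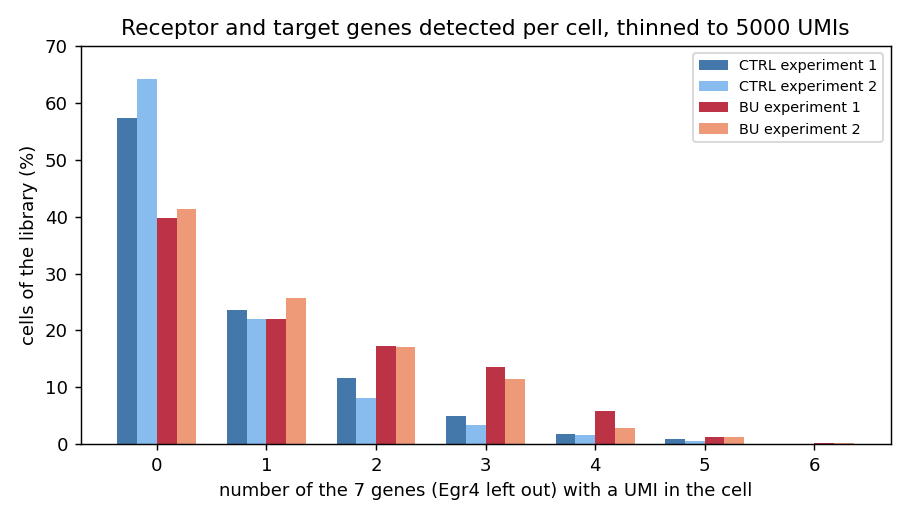
Share of the cells of each library, in percent, by the number of the 7 genes (Egr4 left out) with a UMI after thinning to 5000 UMIs. Cells with none make up 57.3 and 64.2% of the CTRL and 39.8 and 41.3% of the BU libraries, and the BU bars are the taller from 2 genes on.

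Cells with a Gfra1 UMI were then compared with cells without one, within each library, to ask which of the other 7 genes go with the co-receptor transcript. Etv5, Ret, Lhx1, Bcl6b and Egr2 were higher in the cells with a Gfra1 UMI, and Egr4 and Egr3 did not pass the test. In the same fit 7 of 8 ERK feedback genes were called higher and all 5 progenitor genes lower. Within BU 2, though, the progenitor genes Neurog3 (log2 ratio 0.37) and Ddit4 (0.12) were slightly higher with a Gfra1 UMI. UMIs were summed over 362 and 2464 cells with and without Gfra1 in CTRL 1, 155 and 852 in CTRL 2, 596 and 1332 in BU 1 and 304 and 866 in BU 2, with the library as a block. Many cells without a Gfra1 UMI may still express it below the limit of detection.

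Etv5 stood at 128, 51.9, 97.5 and 59.1 CPM (TMM-scaled) in the cells with a Gfra1 UMI of CTRL 1, CTRL 2, BU 1 and BU 2, and at 38.5, 12.8, 41.2 and 29.9 in those without. Lhx1 stood at 47.8, 92.7, 125 and 135 CPM with and at 12.03, 8.91, 47.9 and 69.5 without a Gfra1 UMI. In experiment 1 the BU cells without one were level with the CTRL cells with one, and in experiment 2 they lay below them. Ret stood at 93.4, 66.7, 56.9 and 51.2 against 46.1, 28.4, 32.1 and 24.9 CPM. Egr2 stood at 88.8, 60.5, 84.7 and 44.0 against 27.1, 6.504, 40.6 and 29.7 CPM, and Bcl6b at 22.8, 28.4, 52.0 and 55.2 against 13.7, 5.06, 25.3 and 27.1 CPM. In each of these 5 genes the cells with a Gfra1 UMI were higher in 4 of 4 libraries.

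edgeR's quasi-likelihood test called 1937 of 12016 genes between the 2 classes (16.1%), 700 higher (5.83%) and 1237 lower (10.3%) with Gfra1. The log2 differences were 1.68 ± 0.25 for Lhx1 (adjusted p = 0.00119), 1.45 ± 0.15 for Etv5 (0.000186), 1.43 ± 0.26 for Egr2 (0.00315), 1.13 ± 0.20 for Bcl6b (0.00273) and 1.01 ± 0.11 for Ret (0.000311), so 5 of the 7 were called higher, with a median of 1.13 over the 7 and -0.02 over all genes. Egr3 (0.54 ± 0.41, adjusted p = 0.433) and Egr4 (-0.35 ± 0.16, 0.183) did not pass, though Egr4 was called lower in edgeR without the filter on low counts (-0.37, adjusted p = 0.000106) and without BU 1 (-0.54, 0.0343). Without the library as a replicate block edgeR called 0 genes (1221 at an unadjusted p under 0.05), and without BU 2 it called 1129. Without the shared barcodes it called 1905 and without the cells rich in markers of other cells 1812, and each of the 5 genes stayed called in both.

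The same 5 genes were called at a higher Gfra1 count. These cells (73, 34, 179 and 71 in CTRL 1, CTRL 2, BU 1 and BU 2) are a part of those above. They were set against the same cells with none, so this fit is not separate support. The count of all genes it called is given further on, without their share of the genes tested. Cells with 2 or more Gfra1 UMIs, set against cells with none, gave log2 differences of 2.09 ± 0.31 for Lhx1, 1.78 ± 0.22 for Etv5, 1.73 ± 0.31 for Egr2, 1.24 ± 0.26 for Bcl6b and 1.02 ± 0.18 for Ret, all called in edgeR (adjusted p of 0.00738 or less). In CTRL 1, Lhx1 stood at 10.8, 36.0, 82.8 and 107 CPM of the thinned UMIs in cells with 0, 1, 2 and 3 or more Gfra1 UMIs. In BU 1 these levels were 50, 121, 131 and 176 CPM. Lhx1 was the one of the 5 that went up at each step in all 4 libraries. Over 1, 2 and 3 or more Gfra1 UMIs, Ret went down in CTRL 1 (94.1, 79.3 and 66.7 CPM) and Egr2 in BU 2 (47.2, 37.5 and 26.1). Etv5 in BU 2 stood at 60.9, 62.5 and 34.8 CPM, and Bcl6b had no UMI in the last class of either CTRL library. The last class held 15 cells in CTRL 1 and 51 in BU 1, and only 8 and 23 in CTRL 2 and BU 2.

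Cells with a Ret UMI were also read where Gfra1 was not seen. In cells with a Ret but no Gfra1 UMI, Lhx1 stood at 30.8, 15.2, 131 and 135 CPM in CTRL 1, CTRL 2, BU 1 and BU 2, against 6.58, 7.76, 36.3 and 59.5 in cells with neither. Etv5 stood at 62.0, 17.1, 72.5 and 62.4 against 28.7, 11.8, 37.9 and 25.1 CPM, and Egr2 at 50.8, 17.1, 83.9 and 47.3 against 18.7, 4.82, 35.3 and 26.6 CPM. With both receptor UMIs Lhx1 reached 54.1, 160, 159 and 162 CPM. In both CTRL libraries each gene of the progenitor list was also higher with Ret alone than with Gfra1 alone. Upp1, for one, stood at 144 and 128 against 58.3 and 69.1 CPM, and at 201 and 135 in cells with neither. These are values of thinned cells side by side and were not tested.

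Egr4 stood at 454 and 248 CPM in CTRL cells with a Gfra1 UMI against 866 and 428 in those without, and at 291 and 261 in BU cells with against 259 and 238 in those without. In the CTRL libraries alone the log2 difference was -0.83 ± 0.08 (edgeR, adjusted p = 4.20e-09), and in the BU libraries alone 0.15 ± 0.08 (adjusted p = 0.341). Each of these fits holds only 2 libraries and leans on the spread borrowed over all genes. Their p-values are therefore not to be set against each other. The count of all genes called in the CTRL libraries alone is not given here. Whether these differences differ is tested by the interaction given further on.

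**Figure D5:**
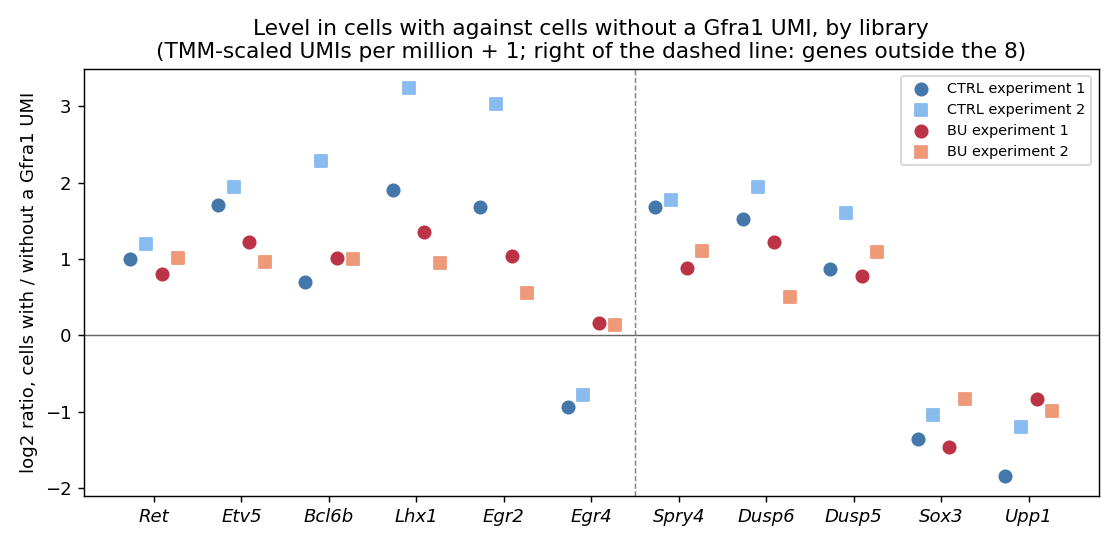
Log2 ratio of the level in cells with a Gfra1 UMI to that in cells without, 1 point per library, from TMM-scaled CPM plus 1. Right of the dashed line, for comparison, are the ERK feedback genes Spry4, Dusp6 and Dusp5 and the progenitor genes Sox3 and Upp1, picked from longer lists. Egr3 is left out for its few UMIs. Of the progenitor genes not shown, Neurog3 (0.37) and Ddit4 (0.12) lay above 0 in BU 2. Ret, Etv5, Bcl6b, Lhx1 and Egr2 lie above 0 in 4 of 4 libraries, and Egr4 lies below 0 in both CTRL and just above 0 in both BU libraries.

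The pathway around the receptor was read from 8 lists of 63 genes. Between cells with and without a Gfra1 UMI, 5.83% of all genes tested were called higher and 10.3% lower. Counts of 1 gene called in a list are given by name and are not read as a result about the list. Of the GDNF family ligands, Gdnf itself was at 0.143 to 0.456 CPM and Pspn at or near 0, while Nrtn, the ligand of the related receptor GFRA2, stood at 15.3 to 27.6 CPM. Of the 4 ligands 1 had enough counts to be tested between the classes and 3 between BU and CTRL, and none was called. Among the 5 other co-receptors, Ncam1, an adhesion molecule that can bind GDNF with GFRA1, was higher with Gfra1 (log2 1.09, adjusted p = 0.011). Of 14 adaptors and SRC-family kinases, 11 were tested and 1 was called, Fyn, the kinase that carries RET signals to PI3K (0.69, adjusted p = 0.000631), at 117, 140, 135 and 123 CPM with and 76.4, 77.1, 77.1 and 87.1 without a Gfra1 UMI.

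Of 9 genes of the PI3K and AKT relay 1 was called higher (Pik3ca, 0.62) and 1 lower (Akt1, -0.66) in cells with Gfra1. Over all genes tested the shares were 5.83% higher and 10.3% lower. Among the RAS and ERK relay genes described here Map2k2 was called lower (-0.28). The ERK feedback genes, which encode inhibitors induced by ERK, stood out, with 7 of 8 called higher against 5.83% of all genes tested. Their median log2 difference was 1.12 against -0.02 over all genes. Spry4 (1.35, adjusted p = 0.000921), Dusp6 (1.27, 0.000656) and Dusp5 (1.04, 0.000575) led by adjusted p, and Spry2 was the member not called.

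Of 6 other GDNF-responsive genes of cultured spermatogonia 3 were called higher with Gfra1, against 5.83% of all genes tested. They were the T-box gene T (1.65, adjusted p = 0.0024), the chemokine receptor gene Cxcr4 (1.04) and Fos (0.85). Mycn was called lower (-0.68, 0.0243), as were 10.3% of all genes tested. Of the relatives and partners of the 6 factors, Etv4 (0.65), Lhx2 (1.02) and Egr1 (0.48) were called higher. The EGR co-repressor gene Nab2, itself an EGR target, was not called (-0.17, adjusted p = 0.603), yet stood lower with Gfra1 in CTRL (143 against 268 and 82.8 against 109 CPM) and higher in BU (111 against 94.3 and 77.5 against 53.9), a difference between the groups that is given as values only.

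Between BU and CTRL, by condition only, none of these genes was called in edgeR. With the replicate block 1 of the 63 was called, against 1.49% of all genes tested. It was Dusp6 (log2 1.32 ± 0.22, adjusted p = 0.0431 in edgeR), which stood at 44.5 and 29.4 CPM in CTRL and at 123 and 63.7 in BU. All 8 ERK feedback genes were higher in both BU than in both CTRL libraries, as were 18.5% of all genes tested. Their median log2 difference was 1.00. Mapk3, which encodes ERK1, stood at 102 and 84.3 CPM in CTRL and 40.2 and 45.8 in BU (-1.09 ± 0.23, adjusted p = 0.0750 with the block). Nab2 stood at 224 and 101 CPM in CTRL and 104 and 53.7 in BU (-0.98 ± 0.20, 0.0643).

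To see whether the BU difference was present within the receptor-bearing cells, BU was compared with CTRL separately in cells with and without a Gfra1 UMI. In cells with one, edgeR called 0 of 10589 genes by condition only (0%, 249 at an unadjusted p under 0.05, 1 by DESeq2) and 32 with the replicate block (0.302%), and none of the 7 genes was called in either. With the block and without the shared barcodes it called 1, which was none of the 7. Bcl6b (1.13 ± 0.31, adjusted p = 0.127 with the block) and Lhx1 (1.01 ± 0.28, 0.117) stood higher in BU, while Etv5 (-0.10 ± 0.27, 0.953), Egr2 (-0.19 ± 0.28, 0.878) and Egr4 (-0.26 ± 0.22, 0.753) lay close to 0. Ret stood lower in both BU (56.9 and 51.2 CPM) than in both CTRL libraries (93.4 and 66.7). Its log2 difference ran from -0.72 to -0.27 over 10 alternatives, and Ret was called in none of them. How many of all genes had no overlap between the groups in these cells was not counted. Leaving out BU 1 or BU 2 gave 9 and 22 calls by condition only, with none of the 7 among them.

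In cells without a Gfra1 UMI, edgeR called 0 of 13758 genes by condition only (0%, 627 at an unadjusted p under 0.05, 40 by DESeq2, 110 without BU 2). With the replicate block it called 294 higher (2.14%) and 521 lower (3.79%) in BU. Among the 7, 3 rose in this fit, Lhx1 by 2.43 ± 0.36 on the log2 scale (adjusted p = 1.01e-08 with the block, 1.00 by condition only), Bcl6b by 1.54 ± 0.38 (0.00312 against 1.00) and Egr2 by 1.27 ± 0.37 (0.0161 against 1.00). Egr4 fell (log2 fold change -1.30 ± 0.32, adjusted p = 0.00264 against 1.00). Lhx1 had a smaller adjusted p here than in all cells despite a larger SE, so the size of p does not rank how alike the 2 experiments were. Without the shared barcodes and with the block edgeR called 803 genes in place of 294 higher and 521 lower. Lhx1, Bcl6b, Egr2 and Egr4 were among them. By condition only, Egr2 ran from 0.34 without CTRL 2 to 2.49 without CTRL 1 on the log2 scale and Bcl6b from 0.89 to 2.42. These cells are a mixture, since more of the BU cells without a Gfra1 UMI may express it below detection, and that share and the level per cell cannot be told apart.

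The difference between the 2 classes was tested itself, as the interaction of BU with the Gfra1 class and with the library as a block. edgeR called 0 of 13329 genes (0%), with 763 at an unadjusted p under 0.05 (5.72%). Egr4 came closest among the 7, its BU change being 1.03 ± 0.13 higher on the log2 scale in cells with a Gfra1 UMI than in cells without (unadjusted p = 5.00e-06, adjusted p = 0.0666 in edgeR). It was called without CTRL 2 (1.12, adjusted p = 0.00131) and without BU 2 (1.03, 6.73e-07), but not without CTRL 1 (0.96, 0.113) or BU 1 (1.03, 0.265). Without the shared barcodes, a fit added after the data were seen, edgeR called 2 genes, Egr4 among them (1.02, adjusted p = 0.0151). Lhx1 (-1.35 ± 0.34, adjusted p = 0.507) and Egr2 (-1.27 ± 0.37, 0.608) leaned the other way and were called in edgeR only without BU 2 (-1.17, adjusted p = 0.0188, and -1.09, 0.0428). Over all genes, 17 were called without CTRL 2, 2 without BU 1 and 136 without BU 2. Etv5 (-0.67), Bcl6b (-0.25), Ret (-0.17) and Egr3 (1.44) were called in none of these fits.

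Across cells, the genes whose thinned levels followed Gfra1 most closely were ranked by the mean over the 4 libraries of Pearson's r on log-transformed UMIs, over 9747 genes outside the 8 with a UMI in at least 2% of cells of every library. Ccnd2, the D-type cyclin gene of dividing stem spermatogonia, came first with a mean r of 0.33 (0.30 and 0.37 in CTRL, 0.37 and 0.30 in BU). It was followed by Malat1 (0.25), Tagln2 (0.23), Rasgrp2 (0.23), Tcl1 (0.23), Nefm (0.23), Chd4 (0.23), Dusp6 (0.23), Foxc2 (0.21) and Mcam (0.21). Among the 7 other genes, Lhx1 (mean r 0.25) had 1 of the 9747 above it, Etv5 (0.22) 8, Egr2 (0.21) 9, Ret (0.14) 48 and Bcl6b (0.12) 108. Egr4 (-0.06) had 9394 above it. Of the progenitor genes, Sox3 (-0.13) had 9737, Upp1 (-0.12) 9730, Ddit4 (-0.08) 9658 and Rarg (-0.08) 9649 above it. Neurog3 was under the 2% limit in BU 2 and not ranked. Points in a library share its depth and capture, r is weak throughout in such sparse counts, and these values are a description.

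Ccnd2 also ranked first for Ret (mean r 0.20), Etv5 (0.28), Bcl6b (0.21), Lhx1 (0.35) and Egr2 (0.30). The next places went to Malat1 and Dusp6 for Ret, Rasgrp2 and Tcl1 for Etv5, Dusp6 and Rasgrp2 for Bcl6b, Nefm and Rasgrp2 for Lhx1, and Tcl1 and Nefm for Egr2. Egr4 was followed by other genes, among them the syndecan gene Sdc4 (0.38) and the ribosomal protein gene Rpl10a (0.36).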

How the data were processed

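Cells were counted as deposited: per the matrix headers the authors ran Cell Ranger 3.0.2, and the deposited values are UMI counts per gene and cell, with no normalisation. The methods name mm10 and the labels GRCm39, and the 2 experiments list 27998 and 31053 genes, of which the 27514 shared by identifier were used. Kit V2 is named for all libraries in the methods, V3.1 for experiment 2 in the labels. Cells were kept with over 1000 genes and under 20% mitochondrial UMIs (13 genes), and UMIs were summed per library, 21012815 to 52648297 in all. Counting intervals cover counting error only.

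Sums were tested with edgeR 4.0.16 (filterByExpr, TMM scaling, quasi-likelihood test, Benjamini-Hochberg adjusted p under 0.05) in R 4.3.3, with DESeq2 1.42.0 as an alternative. SEs are the log2 difference over the root of F. Scripts used Python 3.11.15, scanpy 1.11.5 and scipy 1.17.1, and were tested on simulated data. Over 17354 genes the first libraries of both groups departed from the group mean together (r = 0.78), and the labels tie the number to the kit. Libraries of the same number were therefore taken as a pair, which the labels do not state. Doublets were marked with scrublet at 0.8% per 1000 cells (132 in all) and kept, and left out as an alternative. All 8 genes are named, pathway genes where they passed a test or had 20 CPM or more, the 10 genes most alike to Gfra1 and the 3 most alike to each other member. A few genes that the rule would name are not reported here. The genes, lists and tests were chosen with earlier results of these data known.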

Additional observations from a re-analysis of the deposited data

Results flagged for a closer look

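Egr3 left aside for its few UMIs, Egr4 was the gene of the 8 whose relation to Gfra1 had opposite directions in the 2 groups. In both CTRL libraries it stood lower in cells with a Gfra1 UMI than in cells without (log2 ratios of -0.93 and -0.78), and in both BU libraries slightly higher (0.17 and 0.14). The log2 ratio of Egr3 was -0.32 in CTRL 2 and 0.94 in BU 2. For Egr4 the test of the difference between the groups, the interaction in edgeR, gave 1.03 on the log2 scale. Its adjusted p of 0.0666 missed the threshold of 0.05. Without the barcodes shared between libraries it was 1.02 with an adjusted p of 0.0151. Across its 7 alternatives the adjusted p ran from 6.73e-07 to 1.00.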

How the results depend on the processing

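Depth limits single cells: at 5000 UMIs a transcript is seen in only a part of the cells that hold it, and Egr3 could not be compared in experiment 1. Where a library was left out, the lone library of its group was assumed to vary like the others. The counts of shares (5 of 8 genes higher in BU in both experiments) and of pairs (15) kept their side under the alternatives run, and leaving out a library gave 15 to 17 pairs. How many of all genes were detected in a larger share of BU than of CTRL cells in both experiments was not counted. The 5 therefore cannot be read as a trait of these genes.

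Calls between BU and CTRL in all cells went from 0 to 258 with the replicate block, 1557 with the block and without the shared barcodes, and 120 with DESeq2, and were 0 to 96 with 1 library left out. In cells with a Gfra1 UMI they went from 0 to 32 with the block, 1 with the block and without the shared barcodes, 1 with DESeq2 and 7 with no filter on low counts, and were 0 to 22 with 1 library left out. In cells without one they went to 815, 803, 40 and 2, and 0 to 110. The interaction had 0 calls with and without the replicate block, 2 without the shared barcodes and 0 to 136 with 1 library left out. Between cells with and without a Gfra1 UMI, calls went from 1937 to 0 with no replicate block, 955 for 2 or more UMIs and 658 in BU libraries only, and were 1129 to 1712 with 1 library left out. The cause was not tested, though fewer libraries enter some of these fits.

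The block changed the calls of Lhx1, Gfra1 and Bcl6b in all cells and of Lhx1, Bcl6b, Egr2 and Egr4 in cells without Gfra1, and no other call of the 8 between BU and CTRL. With the shared barcodes left out as well, Egr2 and Egr4 were also called in all cells. Over the alternatives run, Egr2 in all cells ran from 0.37 (without BU 1) to 2.01 (without CTRL 1), Bcl6b from 1.22 to 1.97, Egr4 from -1.55 to -0.54, Gfra1 from 1.05 to 1.44, Lhx1 from 2.01 to 2.52 and Etv5 from 0.05 to 1.56. In cells without Gfra1, Egr2 ran from 0.34 to 2.49, Bcl6b from 0.89 to 2.42, Egr4 from -1.85 to -0.73 and Lhx1 from 2.23 to 2.76. The values that changed sign follow, none of them called in the fit reported. With 1 library left out, Ret in all cells ran from -0.37 to 0.20 (0.06 without BU 2) and Egr3 from -4.41 (without BU 2) to 4.59. With against without Gfra1, Egr3 turned to -0.43 in CTRL libraries only and Egr4 to 0.15 in BU libraries only. In cells with Gfra1, Etv5 ran from -0.62 to 0.63, Egr2 from -0.75 to 0.23 and Egr4 from -0.65 to 0.18 with 1 library left out, and Egr2 turned to 0.29 at the study's threshold. In cells without, Ret ran from -0.737 to 0.0632, Etv5 from -0.16 to 1.53 and Egr3 from -7.81 (without BU 2) to 4.62. The interaction of Ret turned to 0.86 and that of Bcl6b to 0.34 in unthinned cells, and that of Bcl6b ran from -1.43 to 0.33 with 1 library left out.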
